A study of Homo sapiens with 2 samples.

Results

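The transcripts described here come from 10 CCCH zinc finger genes other than the pair whose proteins were tagged: RC3H1, RC3H2, ZFP36L1, ZC3HAV1, ZC3H4, ZC3H18, ZC3H14, ZC3H11A, ZC3H13 and ZC3H15. They were chosen by gene symbol with earlier results of these data known. Each is in both deposited tables, among 10144 genes listed in either. The measurement was PAR-CLIP, in which cells take up 4-thiouridine, ultraviolet light joins it to a bound protein, and the crosslinked base is then read as a T-to-C conversion. Overlapping reads are grouped into clusters, which mark the contacts of the precipitated protein. The study concerns how ZC3H7A and ZC3H7B act on translation and message stability in a way that depends on codons, and the comparisons below ask on which of the 10 transcripts, and where on them, each tagged protein was recovered.

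Both groups were human HEK293 cells, an embryonic kidney line, that overexpressed a Flag/HA-tagged protein: ZC3H7A in one group and ZC3H7B in the other. Both received 1 µg/mL doxycycline for 24 h to induce the protein and 100 µM 4-thiouridine for 16 h, and both were irradiated at 365 nm. The cells were named as HEK293 in the labels, whose culture protocol also names a Flp-In T-REx derivative, and which of the lines carried each construct was not given in the sources used here. There was 1 library for each protein and none without a tagged protein, so no value has a replicate check, no difference between the proteins was tested, and the values belong to an induced, tagged protein and not to the endogenous one.

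CCCH zinc fingers hold zinc with a run of cysteines and a histidine, and in many of these proteins they bind RNA directly. The encoded proteins act at different steps in the life of a message. Roquin-1 and roquin-2, encoded by RC3H1 and RC3H2, bind stem-loops in 3' UTRs and recruit deadenylases. ZFP36L1 binds AU-rich elements in 3' UTRs and also promotes deadenylation. ZC3HAV1, or ZAP, is an antiviral protein that recognises CpG-rich RNA. ZC3H4 restrains unproductive transcription in the nucleus, ZC3H18 links the nuclear cap-binding complex to RNA decay, ZC3H14 binds poly(A) tails, and ZC3H11A takes part in mRNA export. ZC3H13 belongs to the complex that writes N6-methyladenosine, and ZC3H15 stabilises the GTPase DRG1, which associates with ribosomes. The data below concern the messenger RNAs of these genes, not their proteins.

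With ZC3H7A tagged, 8203 genes shared 51807 clusters, 3779299 reads and 300311 distinct reads. With ZC3H7B tagged, 9158 genes shared 99804 clusters, 2409035 reads and 1212909 distinct reads. This gives 12.6 reads per distinct read for ZC3H7A and 1.99 for ZC3H7B. Reads per distinct read on the members moved with the library in the same way, from 3.67 to 19.3 with ZC3H7A tagged and from 1.12 to 2.07 with ZC3H7B tagged, and its part in the results was not tested. All intervals are at 95% and cover counting error alone, and repeated copies of a molecule make those on reads too narrow even for that. They are exact except for mean reads per cluster, where the interval on reads was shifted with the cluster numbers taken as known. The transcript of the tagged gene itself was listed in its own library, ZC3H7A with 82704 reads (158 in the other library) and ZC3H7B with 3768 reads (1362 in the other). The tables list bound transcripts and are not a measure of expression. Of 6 genes often found in HEK293 cells, VIM was listed in both libraries and KRT18 in the ZC3H7A library, and KRT8, PAX2, NES and NEFM in neither. Of 6 markers of liver, blood, T cells, red cells, pancreas and heart (ALB, PTPRC, CD3E, HBB, INS and TNNT2), none was listed.

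All 10 transcripts carried clusters in both libraries, which held 88% of the ZC3H7A library's genes and 78.8% of the ZC3H7B library's in common. Since the 10 were chosen with earlier results of these data known, their listing and cluster numbers are not a trait of CCCH genes. Of 45 other CCCH genes, 21 were listed in both libraries. A gene enters a table only with a called cluster, and the lowest read sum of any listed gene was 5 with ZC3H7A tagged and 4 with ZC3H7B tagged. Together the 10 genes held 7485 reads in 100 clusters with ZC3H7A tagged and 5858 reads in 255 clusters with ZC3H7B tagged, or 0.198% and 0.243% of the reads. The median member had 7 clusters and 18 clusters, beside 4 and 7 for the median gene. Transcript length was not used here, so read numbers are compared for 1 gene between libraries and not from gene to gene.

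**Figure D1:**
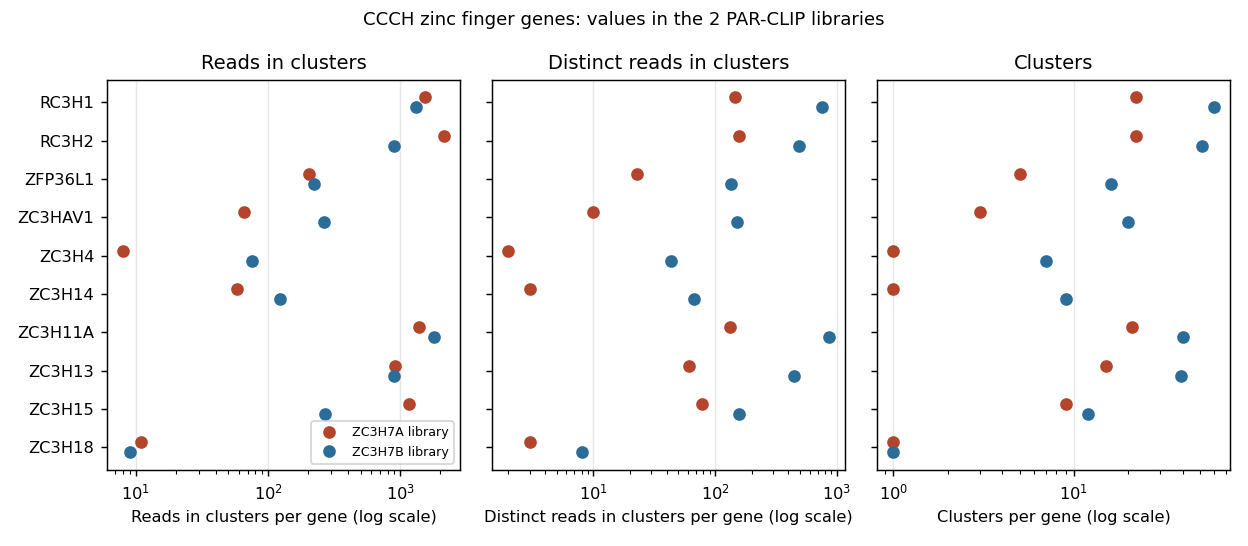
Reads, distinct reads and clusters of each of the 10 genes (log scales) in the ZC3H7A library (red) and the ZC3H7B library (blue), 1 library each. The values are raw counts, not scaled for the different depth of the libraries. Raw distinct reads were higher in the ZC3H7B library for every gene shown. Raw reads were higher in the ZC3H7A library for RC3H1, RC3H2, ZC3H13, ZC3H15 and ZC3H18. Scaled to the median gene, RC3H2 and ZC3H15 kept that direction. The scaled log2 ratios of reads of RC3H1 (0.28) and ZC3H13 (0.46) lay towards ZC3H7B, although that of RC3H1 was -0.20 with mean reads per cluster. For ZC3H18 (0.20) the interval of -1.25 to 1.61 spans both directions.

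To compare libraries of different depth, a log2 ratio of ZC3H7B over ZC3H7A was computed from the reads of each gene and scaled so that the median of 7167 genes was 0. A gene counted as higher on one side only if its whole interval lay beyond 2-fold, which held for 18% of all genes towards ZC3H7A and 18.3% towards ZC3H7B. By this rule 1 of the 10 genes, ZC3H15, was higher with ZC3H7A tagged, and 3 (ZC3H4, ZC3HAV1 and ZC3H14) were higher with ZC3H7B tagged. None of the 4 kept an interval beyond 2-fold when distinct reads, clusters or mean reads per cluster took the place of reads, where 10.1% and 7.28%, 0.223% and 0.321%, and 4.65% and 6.17% of all genes had one towards ZC3H7A and ZC3H7B. The median log2 ratio of the 10 genes was 0.55 with reads, 0.57 with distinct reads, 0.49 with clusters and -0.0080 with mean reads per cluster, against 0 for all genes by construction. With the last of these, 5 members lay above 0 and 5 below.

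The roquin transcripts were among the members with the most clusters, and most of them lay in the 3' UTR. RC3H1 held 1529 reads in 22 clusters, made of 146 distinct reads, in the ZC3H7A library. With ZC3H7B tagged it held 1316 reads in 60 clusters, made of 759 distinct reads. In the 3' UTR lay 17 of 22 clusters, or 77.3% (54.6 to 92.2%), and 40 of 60, or 66.7% (53.3 to 78.3%). Of genes with at least 10 clusters, 14.1% with ZC3H7A tagged and 46.0% with ZC3H7B tagged lay at or above these shares. The median such gene had 40% and 62.5% of its clusters in the 3' UTR. Coding sequence held 4 of 22 and 18 of 60, and 1 cluster in each library lay in the 5' UTR.

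RC3H2, the paralog, held 2145 reads in 22 clusters, made of 158 distinct reads, in the ZC3H7A library. In the ZC3H7B library it held 900 reads in 51 clusters, made of 492 distinct reads. Its 3' UTR held 15 of 22 clusters, or 68.2% (45.1 to 86.1%), and 37 of 51, or 72.5% (58.3 to 84.1%), and its coding sequence 4 of 22 and 11 of 51. Of genes with at least 10 clusters, 23.8% and 38.1% lay at or above these 3' UTR shares. The paralogs thus shared the same cluster number and nearly the same layout in the ZC3H7A library, with wide intervals.

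Their ratios between libraries stood apart. The log2 ratio was 0.28 (0.17 to 0.38) for RC3H1 and -0.76 (-0.87 to -0.65) for RC3H2. Both values lay between the 25th and 75th percentiles of all genes compared, at -1.05 and 1.03. The difference of RC3H1 minus RC3H2 was 1.04 (0.88 to 1.19) with reads and 0.74 (0.36 to 1.11) with distinct reads. With clusters it was 0.23 (-0.86 to 1.33), an interval that holds 0. RC3H2 itself had a log2 ratio of 0.29 with clusters, the opposite sign to its ratio with reads. In the ZC3H7A library RC3H2 had a mean of 97.5 reads per cluster and a median of 95. On RC3H1 the mean there was 69.5 and the median 36, so its reads were less equally divided among clusters.

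ZFP36L1 was also covered mainly in its 3' UTR, and its ratio lay within 2-fold. It held 204 reads in 5 clusters, made of 23 distinct reads, with ZC3H7A tagged and 224 reads in 16 clusters, made of 134 distinct reads, with ZC3H7B tagged. The 3' UTR held 3 of 5 clusters and 13 of 16, the latter 81.2% (54.4 to 96.0%). In the ZC3H7B library, 26.8% of genes with at least 10 clusters lay at or above that share. The log2 ratio was 0.63 (0.35 to 0.91) with reads, 0.49 (-0.16 to 1.19) with distinct reads and -0.08 with mean reads per cluster. ZFP36L2, its close relative, held 308 reads in 7 clusters and 931 reads in 16 clusters, at a log2 ratio of 2.09 (1.90 to 2.28), and all 16 of its clusters in the ZC3H7B library lay in the 3' UTR. The difference of ZFP36L1 minus ZFP36L2 was -1.46 (-1.80 to -1.12) with reads and -1.08 (-1.93 to -0.22) with distinct reads, but 0.47 (-1.72 to 2.77) with clusters. ZFP36, the founding member of that family, was listed only in the ZC3H7B library, with 46 reads in 4 clusters, all in the 3' UTR.

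ZC3HAV1 was one of the 3 genes higher in the ZC3H7B library. It held 66 reads in 3 clusters, made of 10 distinct reads, with ZC3H7A tagged, and 264 reads in 20 clusters, made of 150 distinct reads, with ZC3H7B tagged. Its log2 ratio was 2.49 (2.10 to 2.91) with reads and 1.85 (0.93 to 2.94) with distinct reads. Mean reads per cluster gave 0.73, since the ZC3H7B library had many more clusters on it. Of the 20 clusters 12 lay in the 3' UTR, 5 in coding sequence, 2 in introns and 1 at the stop codon.

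ZC3H4 stood highest of the members by this ratio but rests on few reads in the ZC3H7A library. There it held 8 reads in 1 cluster, made of 2 distinct reads and lying in the 3' UTR. In the ZC3H7B library it held 75 reads in 7 clusters, made of 43 distinct reads, with 5 clusters in the 3' UTR and 2 in coding sequence. The log2 ratio was 3.72 (2.67 to 4.99) with reads and 2.37 (0.43 to 5.46) with distinct reads.

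ZC3H14 was recovered in the same uneven way. It held 58 reads in 1 cluster of the 3' UTR, made of 3 distinct reads, with ZC3H7A tagged, and 124 reads in 9 clusters, made of 67 distinct reads, with ZC3H7B tagged. The 3' UTR held 5 of the 9 clusters and coding sequence 4. The log2 ratio was 1.59 (1.13 to 2.07) with reads and 2.43 (0.82 to 4.74) with distinct reads. It was -0.61 from mean reads per cluster, since the 1 cluster of the ZC3H7A library held 58 reads and those of the ZC3H7B library 13.8 on average. In the RefSeq table of assembly GRCh38.p14 the gene EML5 overlaps ZC3H14 and was listed in both libraries, so reads from the overlap are uncertain between the genes.

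ZC3H18 was the only member with a single cluster in both libraries. It had 1 cluster in coding sequence in each library, with 11 reads made of 3 distinct reads for ZC3H7A and 9 reads made of 8 distinct reads for ZC3H7B. The log2 ratio of 0.20 (-1.25 to 1.61) spans both directions, and with distinct reads it was -0.64 (-2.70 to 1.91). T-to-C conversion was 55.6% of the reads of its cluster in the ZC3H7B library and 100% in the ZC3H7A library.

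ZC3H15 was the only one of the 10 genes counted as higher in the ZC3H7A library, and its clusters lay mostly in coding sequence. It held 1170 reads in 9 clusters, made of 78 distinct reads, with ZC3H7A tagged and 268 reads in 12 clusters, made of 157 distinct reads, with ZC3H7B tagged. The log2 ratio was -1.63 (-1.83 to -1.44) with reads, -1.05 (-1.45 to -0.64) with distinct reads, -0.51 with clusters and -1.07 with mean reads per cluster, so its sign was the same in all 4 quantities. Coding sequence held 8 of 9 clusters, or 88.9% (51.8 to 99.7%), and 7 of 12, or 58.3% (27.7 to 84.8%), and the 3' UTR 1 of 9 and 4 of 12.

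ZC3H13 also had more clusters in coding sequence than in all other regions together. It held 908 reads in 15 clusters, made of 61 distinct reads, for ZC3H7A and 889 reads in 39 clusters, made of 446 distinct reads, for ZC3H7B. Coding sequence held 9 of 15 clusters, or 60% (32.3 to 83.7%), and 21 of 39, or 53.8% (37.2 to 69.9%). In the 3' UTR lay 4 of 15 and 15 of 39. The log2 ratio was 0.46 (0.33 to 0.60) with reads and 0.81 (0.43 to 1.22) with distinct reads.

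ZC3H11A differed from the other members in carrying many clusters in its 5' UTR. It held 1386 reads in 21 clusters, made of 132 distinct reads, with ZC3H7A tagged and 1789 reads in 40 clusters, made of 865 distinct reads, with ZC3H7B tagged. Of these, 10 of 21 clusters, or 47.6% (25.7 to 70.2%), and 18 of 40, or 45.0% (29.3 to 61.5%), were assigned to the 5' UTR. Among all other genes the 5' UTR held 3.59% of clusters with ZC3H7A tagged and 0.754% with ZC3H7B tagged. Coding sequence of ZC3H11A held 4 of 21 and 7 of 40 clusters, and its 3' UTR 6 of 21 and 10 of 40.

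No gene had more 5' UTR clusters than ZC3H11A in the ZC3H7B library, where C6orf62 followed with 12. In the ZC3H7A library C6orf62 had 12, and ZNF146 had 10 like ZC3H11A. By share, 1 of 1637 genes with at least 10 clusters lay above ZC3H11A with ZC3H7A tagged and 3 of 3598 with ZC3H7B tagged. The log2 ratio of ZC3H11A was 0.86 (0.76 to 0.96) with reads, 0.66 (0.39 to 0.93) with distinct reads and 0.00 with clusters.

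ZBED6, a transcription factor gene without introns that lies inside ZC3H11A, has the same interval as ZC3H11A in the RefSeq table of assembly GRCh38.p14, and both were listed in both libraries. ZBED6 held 1816 reads in 24 clusters for ZC3H7A, with 15 in coding sequence and 7 in the 5' UTR, and 1235 reads in 32 clusters for ZC3H7B, with 24 and 6. With the clusters of both genes summed, the 5' UTR held 17 of 45, or 37.8% (23.8 to 53.5%), and 24 of 72, or 33.3% (22.7 to 45.4%). A cluster assigned to both genes would count for each of them in this sum, and its intervals take all clusters as separate. Whether any cluster was assigned to both was not tested. Reads from sequence that the genes share are uncertain between them, and whether clusters of ZC3H11A lay in ZBED6 was not tested.

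**Figure D2:**
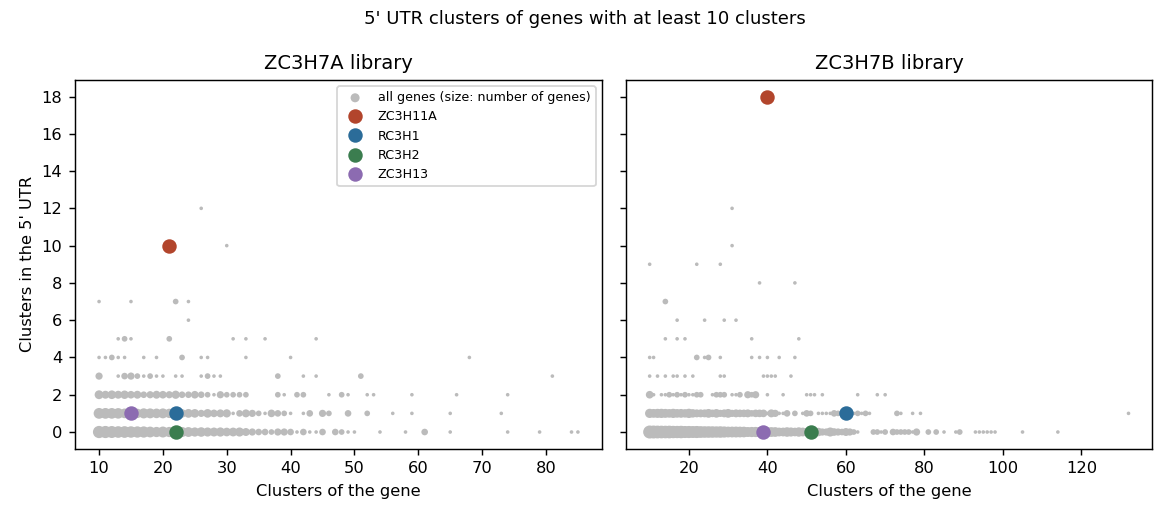
Number of clusters in the 5' UTR (vertical axis) against all clusters of a gene (horizontal axis) in each library, for genes with at least 10 clusters. Grey points are all genes, with the point size rising with the number of genes at that position. ZC3H11A lies at 10 of 21 clusters for ZC3H7A and 18 of 40 for ZC3H7B, whereas RC3H1, RC3H2 and ZC3H13 lie at 0 or 1.

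Coding clusters were found on 8 of the 10 genes with ZC3H7A tagged and on all 10 with ZC3H7B tagged, beside 70% and 66% of all genes. Clusters in the 3' UTR were found on 9 in each library, every member but ZC3H18, beside 58.9% and 74.7% of all genes. The 5' UTR clusters were found on 4 in the ZC3H7A library (ZC3H11A, ZC3H13, RC3H1 and ZFP36L1), where 16.9% of all genes had one, and on 2 in the ZC3H7B library (ZC3H11A and RC3H1), where 5.48% had one. The median member had more clusters than the median gene, so these counts and the shares over all genes are not like for like. At least 10 clusters were found on 4 members with ZC3H7A tagged and 7 with ZC3H7B tagged. Among all genes with that many, 36.9% and 10.7% had a 5' UTR cluster. In coding sequence these shares were 95.9% and 88.4%, and in the 3' UTR 90.3% and 94.8%. Summed over the members, the 5' UTR held 13 of 100 clusters, or 13% (7.11 to 21.2%), for ZC3H7A and 19 of 255, or 7.45% (4.55 to 11.4%), for ZC3H7B. Without ZC3H11A these were 3 of 79, or 3.80% (0.790 to 10.7%), and 1 of 215, or 0.465% (0.0118 to 2.56%). The summed share therefore rested on ZC3H11A.

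Coding sequence held 32 of the 100 clusters, or 32% (23.0 to 42.1%), with ZC3H7A tagged and 78 of 255, or 30.6% (25 to 36.6%), with ZC3H7B tagged. Among all other genes these shares were 42.7% (42.3 to 43.1%) and 29.6% (29.3 to 29.8%). The 3' UTR held 50% (39.8 to 60.2%) and 55.3% (49.0 to 61.5%) on the members, against 39.8% and 55.8% on all other genes. In the ZC3H7A library the members' coding interval thus lay just below the share of other genes, and in the ZC3H7B library it held it. Left without ZC3H11A, the coding shares were 35.4% (25 to 47.0%) and 33.0% (26.8 to 39.7%), and the first of these intervals then held 42.7%. Clusters of 1 gene share their transcript, which these intervals do not cover.

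**Figure D3:**
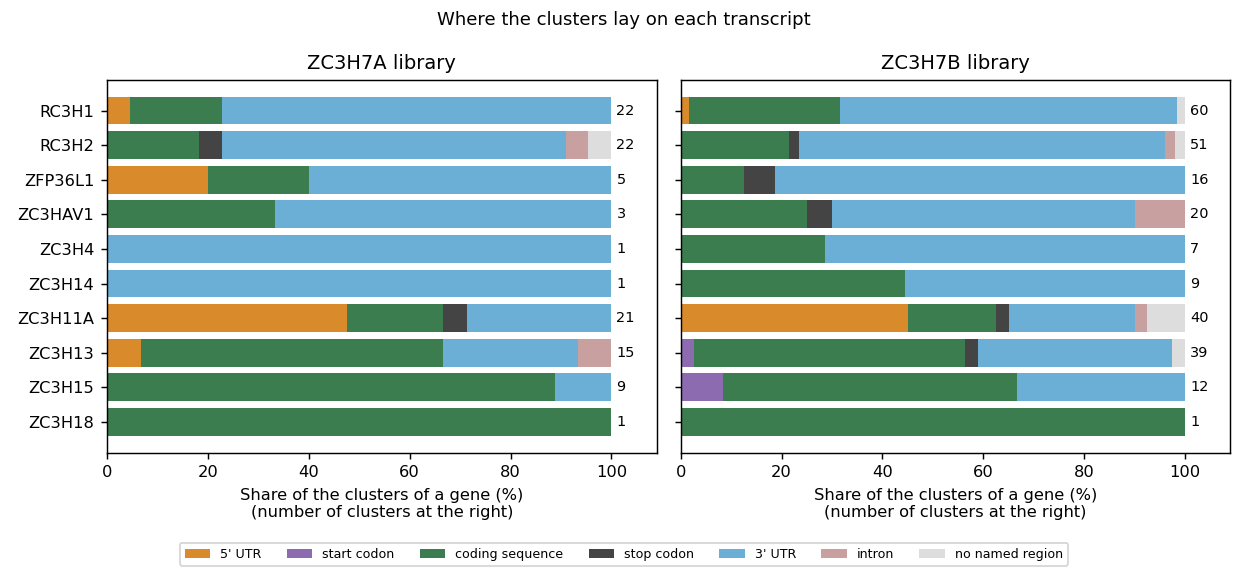
Share of the clusters of each gene in each transcript region (horizontal axis, %), in the ZC3H7A library (left) and the ZC3H7B library (right), with the number of clusters at the right of each bar. The bars of ZC3H11A show the 5' UTR (orange) at 47.6% and 45.0%, those of RC3H1 and RC3H2 mostly the 3' UTR (light blue), and those of ZC3H13 and ZC3H15 mostly coding sequence (green). Bars with 1 cluster show that cluster alone.

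Within single genes, 7 members had at least 3 clusters in each library. The coding share was higher in the ZC3H7A library for 5 of them (ZC3H11A, ZC3H13, ZC3H15, ZC3HAV1 and ZFP36L1), as for 67.8% of all such genes. It was higher in the ZC3H7B library for both roquin genes, as for 22.8% of all such genes, by 11.8 percentage points for RC3H1 and 3.39 points for RC3H2. For 4 of 7 members the 3' UTR share was larger with ZC3H7B tagged (ZC3H13, ZC3H15, RC3H2 and ZFP36L1), beside 69.2% of all such genes, and larger with ZC3H7A tagged for RC3H1, ZC3HAV1 and ZC3H11A, beside 18.2%. Among the 4 members with at least 10 clusters in each library, each share was larger in each library for 2, where 77.8% of such genes had the larger coding share for ZC3H7A (18.7% for ZC3H7B) and 76.9% the larger 3' UTR share for ZC3H7B (18.2% for ZC3H7A). The largest shift was on ZC3H15, whose coding share was 30.6 percentage points lower in the ZC3H7B library, and even there the intervals of the libraries overlap. The median coding difference, ZC3H7B minus ZC3H7A, was -6.15 points over the 7 members and -10.0 points over all such genes.

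Clusters at the start codon were found on ZC3H13 and ZC3H15, 1 each, in the ZC3H7B library, where 6.69% of all genes had one. By cluster, the start codon held 2 of 255, or 0.784% (0.0951 to 2.80%), beside 0.645% for other genes. In the ZC3H7A library, where 8.85% of all genes had one, 0 of the 100 clusters lay there, with an exact upper limit of 3.62%, beside 1.44% of the clusters of other genes. Stop codon clusters were found on RC3H2 and ZC3H11A in the ZC3H7A library (8.73% of all genes) and on RC3H2, ZC3H11A, ZC3H13, ZC3HAV1 and ZFP36L1 in the ZC3H7B library (18.7% of all genes), 1 on each. By cluster, the stop codon held 2 of 100, or 2% (0.243 to 7.04%), and 5 of 255, or 1.96% (0.640 to 4.52%). Other genes had 1.46% and 1.85% there, and the members' intervals held these shares. Introns held 2 of 100 clusters, on 2 members (18.7% of all genes), and 4 of 255, on 3 members (21.5% of all genes). These are 2% (0.243 to 7.04%) and 1.57% (0.429 to 3.97%) of the members' clusters, against 6.19% and 6.14% for other genes. The interval for ZC3H7B lies below the share of other genes, but it does not cover that clusters of 1 gene share their transcript. Counted by gene, intron clusters were not rarer on the members than on all genes. The median gene with at least 10 clusters had an intron share of 0% in each library.

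Ordered by the log2 ratio of reads, the members ran from ZC3H15 through RC3H2, ZC3H18, RC3H1, ZC3H13, ZFP36L1, ZC3H11A, ZC3H14 and ZC3HAV1 to ZC3H4. The intervals of neighbours in this order were apart for ZC3H15 and RC3H2, for ZC3H11A and ZC3H14, and for ZC3H14 and ZC3HAV1, and overlapped for the other 6 pairs. With distinct reads, ZC3H15 was again lowest at -1.05 and ZC3H14 was highest at 2.43, and among neighbours the intervals of RC3H2 and RC3H1 alone were apart. The values of ZC3H4, ZC3HAV1, ZC3H11A and ZC3H13 lay above 0 in all 4 quantities and those of ZC3H15 below 0, although ZC3H11A reached only 0.00 with clusters. With clusters the intervals of ZC3H4 (-1.08 to 7.38), ZC3H13 (-0.44 to 1.42) and ZC3H15 (-1.88 to 0.92) also held 0. That of ZC3H13 with mean reads per cluster did too (-0.08 to 0.19). The 4 quantities are not separate checks, since reads are clusters times mean reads per cluster. The sign of the other 5 depended on the quantity.

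**Figure D4:**
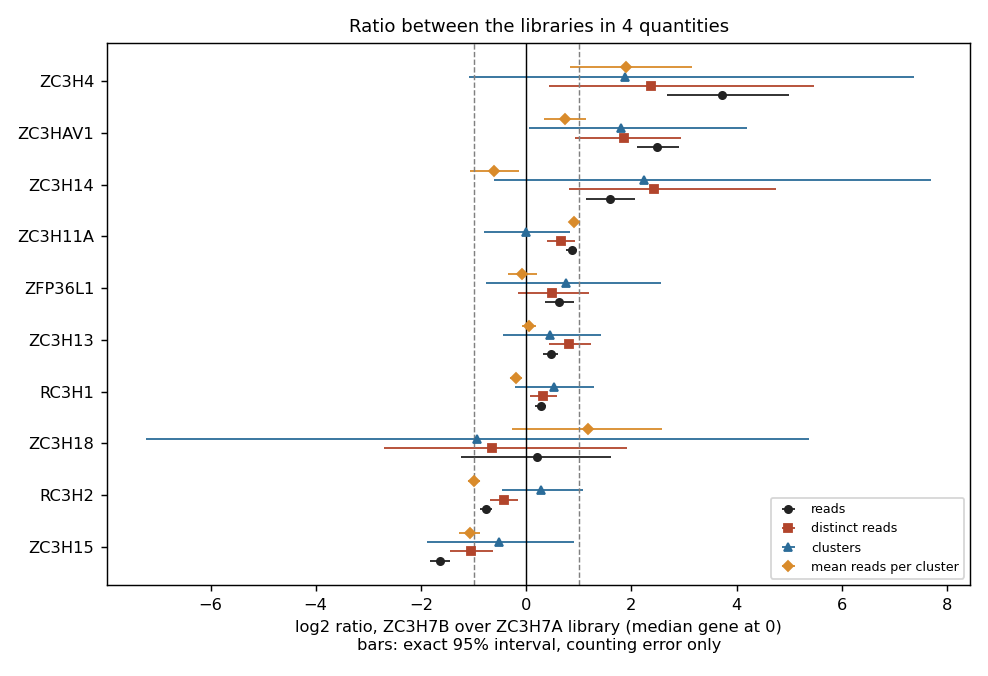
Log2 ratio of the ZC3H7B over the ZC3H7A library for each gene (horizontal axis, median gene at 0), from reads (black), distinct reads (red), clusters (blue) and mean reads per cluster (orange). Bars are 95% intervals for counting error, which for mean reads per cluster leave out the counting error of clusters. Dashed lines mark 2-fold. The points of ZC3H15 lie below 0 in each quantity, with an interval that holds 0 for clusters, whereas the points of ZC3H14 run from -0.61 to 2.43.

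T-to-C conversion on the members was close to that of the libraries. Each gene's conversion was the mean of its clusters, and the read-weighted mean of the members came to 92.4% for ZC3H7A and 89.4% for ZC3H7B, against 92.0% and 89.2% over all genes. It ran from 89.6% (RC3H2) to 100% with ZC3H7A tagged and from 55.6% (ZC3H18, 9 reads) to 94.4% (ZC3H15) with ZC3H7B tagged. The 4 members at 100% in the ZC3H7A library (ZC3H4, ZC3H14, ZC3H18 and ZC3HAV1) were those with 10 or fewer distinct reads, and 38.1% of all genes were at 100% there. No member was at 100% in the ZC3H7B library, where 16.3% of all genes were.

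Other CCCH genes were taken as a list of 45, of which 21 were listed in both libraries, 3 in the ZC3H7A library alone, 7 in the ZC3H7B library alone and 14 in neither. Of 20 with at least 20 reads summed, 2 were higher with ZC3H7A tagged and 4 with ZC3H7B tagged, beside 18% and 18.3% of all genes, and their median log2 ratio was -0.08. MBNL1, a splicing regulator, held 4800 reads in 18 clusters and 1369 reads in 26 clusters, at a log2 ratio of -1.32 (-1.40 to -1.23). RNF113A, a spliceosome-associated protein, stood at -3.56 (-4.80 to -2.54), with 8 reads in 1 cluster in the ZC3H7B library.

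Towards ZC3H7B, PAN3, a subunit of a deadenylase, stood at 2.43 (1.95 to 2.93) and ZFP36L2 at 2.09, and these were the 2 that kept an interval beyond 2-fold with distinct reads. MKRN1, a ubiquitin ligase, stood at 1.61 (1.41 to 1.81) and HELZ, a helicase, at 1.49 (1.22 to 1.76). TIPARP, an ADP-ribosyltransferase, stood at -0.75 (-0.88 to -0.62), and the paralogs RBM26 and RBM27 at -0.14 (-0.25 to -0.02) and 1.13 (0.99 to 1.27). None of these 3 had its whole interval beyond 2-fold, although the value of RBM27 lay beyond it, and scaled to total reads its interval did too, at 1.28 (1.15 to 1.42). U2AF1L4 (122 reads) and ZRSR1 (179 reads), both related to the splicing factor U2AF1, were listed in the ZC3H7A library alone and share sequence with relatives, so their reads are uncertain. In the 5' UTR this list had 1.64% (0.339 to 4.72%) of its clusters for ZC3H7A and 1.89% (0.762 to 3.85%) for ZC3H7B, where 6 of the 7 such clusters lay on MBNL2, a splicing regulator.

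**Figure D5:**
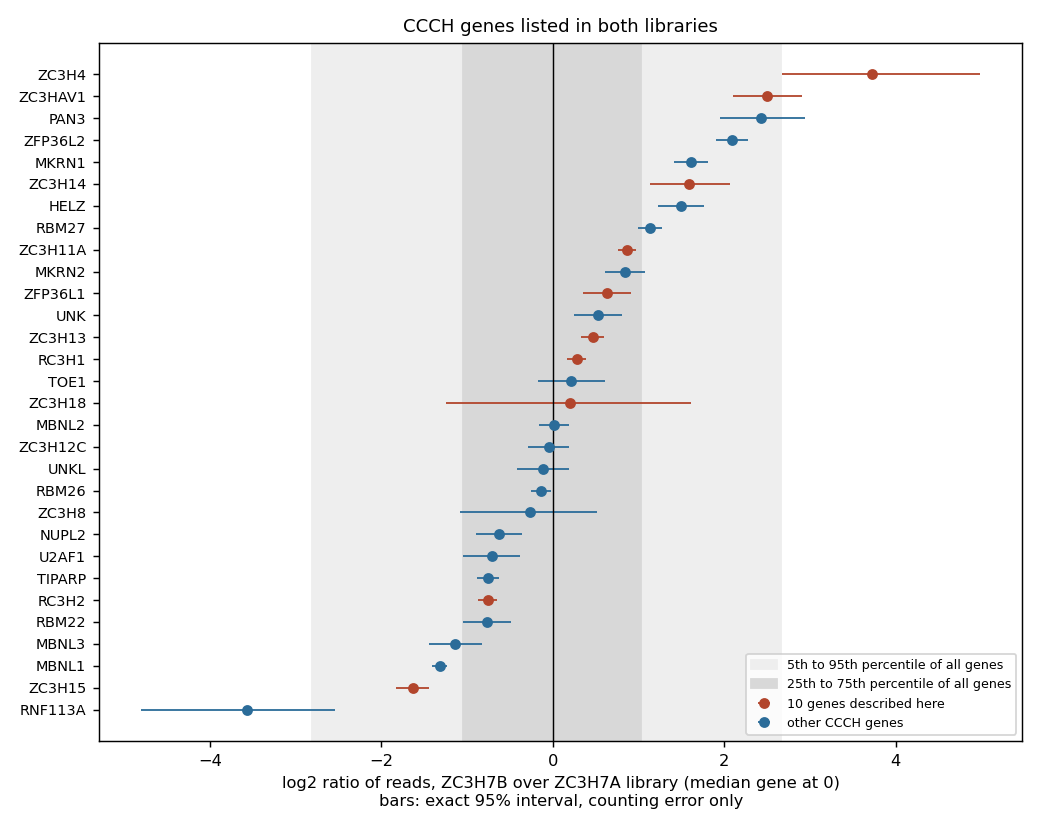
Log2 ratio of reads, ZC3H7B over ZC3H7A library (horizontal axis, median gene at 0), of the 10 genes described here (red) and the other CCCH genes with at least 20 reads summed (blue), with exact 95% intervals for counting error. Grey bands run from the 25th to the 75th percentile of all genes (-1.05 to 1.03) and from the 5th to the 95th (-2.80 to 2.66). The red points run from -1.63 (ZC3H15) to 3.72 (ZC3H4), and the blue points from -3.56 (RNF113A) to 2.43 (PAN3).

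Genes whose proteins work with those of the members were followed as a list of 25, with 23 listed in both libraries, of which 6 were higher with ZC3H7A tagged and 4 with ZC3H7B tagged, where 18% and 18.3% of all genes were. These numbers were 2 (ALYREF and SRRT) and 1 (KHNYN) with distinct reads, 0 and 0 with clusters, 0 and 2 (WDR82 and TRIM25) with mean reads per cluster, and 4 and 5 when scaled to total reads, where DRG1 and NUFIP2 were no longer counted. The values that follow are from reads. The partner of ZC3H15, DRG1, held 503 reads and 134 reads, at a log2 ratio of -1.41 (-1.70 to -1.14), and coding sequence held 5 of 5 and 4 of 6 of its clusters. NUFIP2, a cofactor of roquin, held 22141 reads and 7114 reads, at -1.14 (-1.18 to -1.11), with 63 of 79 and 81 of 94 clusters in the 3' UTR. CNOT1, the scaffold of the deadenylase that ZFP36L1 recruits, stood at 0.70 (0.60 to 0.79), and coding sequence held 28 of 30 and 53 of 70 of its clusters.

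Of the ZC3HAV1 cofactors, KHNYN, a nuclease, held 147 reads and 450 reads, at 2.11 (1.84 to 2.39), with 4 of 4 and 24 of 25 clusters in the 3' UTR. The ubiquitin ligase gene TRIM25 stood at 1.34 (1.21 to 1.46), with 14 of 16 and 29 of 30 clusters in the 3' UTR. N4BP1, a ribonuclease, stood at -1.34 (-1.51 to -1.18) and had 12 of 17 and 10 of 25 clusters in coding sequence. For ZC3H4, WDR82, its partner in transcription restriction, stood at 1.45 (1.34 to 1.56) and SRRT, which couples capped RNA to decay, at -1.75 (-2.04 to -1.47). For ZC3H14, the poly(A)-binding protein gene PABPN1 stood at -1.59 (-1.93 to -1.26).

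In the methyladenosine writer complex with ZC3H13, the scaffold gene KIAA1429 stood at 1.25 (1.04 to 1.46), METTL14 at 0.87 (0.52 to 1.24), RBM15 at 0.37 (0.23 to 0.51), WTAP at 0.21 (-0.07 to 0.49) and CBLL1 at -0.06 (-0.15 to 0.04). KIAA1429 had 9 of 9 and 26 of 30 clusters in coding sequence. Among nuclear decay factors linked with ZC3H18, the cap-binding gene NCBP2 stood at 1.04 (0.89 to 1.19), ZCCHC8 at 0.11, the helicase gene SKIV2L2 at -0.03 and RBM7 at -0.75. Of the export genes linked with ZC3H11A, ALYREF stood at -1.95 (-2.32 to -1.61), THOC2 at 0.45 and THOC5 at -0.44.

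The genes most like the 4 members with at least 10 clusters in each library were sought among 1529 genes by distance over 5 values, namely the log2 ratio and the coding and 3' UTR shares in both libraries. Nearest to RC3H1 was MARCH6 (distance 0.20, where the median gene lay at 2.19), with 14 of 19 and 27 of 39 clusters in the 3' UTR and a log2 ratio of 0.24. Nearest to RC3H2 was YIPF4 (0.34), with 12 of 19 and 24 of 30 clusters in the 3' UTR and a log2 ratio of -0.79. Nearest to ZC3H13 was ZNF329 (0.31), whose coding sequence held 6 of 10 and 14 of 24 clusters. Nearest to ZC3H11A was GPBP1L1 (0.49), which also had 5' UTR clusters, 5 of 15 and 10 of 31. The distance did not use the 5' UTR directly, but a match on coding and 3' UTR shares leaves a like share for the other regions. The 5' UTR clusters are therefore not a separate likeness.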

How the data were processed

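Each of the 2 libraries has 1 gene-level table. Build hg19 and the tools STAR 2.5.2a, Bowtie and cutadapt come from the submitters' processing notes, without their roles; the cluster caller is not stated there. Per the file headers, the counts the authors deposited are clusters, reads and distinct reads summed over clusters, and clusters per transcript region; the exon column was read as coding. The deposited fraction is the T-to-C share of reads, as the median over clusters. The deposited score columns hold sums or medians over clusters; the sum of T-to-C fractions was divided by the number of clusters, and the conversion specificity was not used. Start and stop codon columns are numbers of clusters.

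Rows naming repeats or small RNA classes were left out (283 of 8486 and 408 of 9566, with 1.58% and 1.52% of reads). Log2 ratios used genes listed in both libraries with at least 20 reads summed, scaled to the median gene, with exact conditional 95% intervals; shares have exact Clopper-Pearson 95% intervals. The ratio step was tested on simulated data drawn without repeated copies of a molecule. That test therefore cannot show whether the intervals on reads are wide enough in these libraries. The members and lists were chosen with earlier results of these data known. Named genes were all 10 members; of the other CCCH genes, the 4 with the most reads per library, those beyond 2-fold with at least 100 reads summed and those in 1 library with at least 20 reads; partner genes with at least 100 reads summed; and, for members with at least 10 clusters in each library, the nearest gene. ZFP36L2 was compared with ZFP36L1 as its paralog. C6orf62, ZNF146, ZBED6, MBNL2 and EML5 were named after their values or positions were seen. RefSeq symbols (GRCh38.p14) matched all 10 members and 45 of 45 other CCCH symbols. Coding clusters per codon, a planned value, were not computed, since protein lengths were not used here. The tools were scipy 1.17.1, numpy 2.4.6, pandas 2.3.3 and matplotlib 3.10.9 in Python 3.11.15, and edgeR 4.0.16 in R 4.3.3 for TMM scaling only.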

Additional observations from a re-analysis of the deposited data

How the results depend on the processing

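With distinct reads, clusters or mean reads per cluster in place of reads, the members with an interval beyond 2-fold numbered 0 towards ZC3H7A and 0 towards ZC3H7B, against 1 and 3 with reads. The other CCCH genes numbered 2 and 4 with reads, 0 and 2 with distinct reads, 0 and 0 with clusters, and 0 and 1 with mean reads per cluster. The median log2 ratio of the members was 0.55 with reads, -0.0080 with mean reads per cluster, and 0.70 when scaled to total reads, a scaling that moved the median of all genes to 0.16. ZC3H14 changed sign with mean reads per cluster, at -0.61. The cause was not tested, beyond the smaller numbers that widen the intervals of distinct reads and clusters. Scaling to total reads or with TMM factors, and dropping the filter on reads, left the members' counts at 1 and 3. With at least 10 clusters in each library, which left 4 members, the coding share was higher in the ZC3H7A library for 2 and the 3' UTR share higher in the ZC3H7B library for 2. The coding share in the ZC3H7B library was 39.2% with members weighted equally, and the median T-to-C value in the ZC3H7A library was 100%. Summing ZC3H11A with ZBED6 and leaving out ZC3H11A were alternatives chosen after seeing the data. No paired analysis was possible because each protein has 1 library. Depth limits ZC3H4, ZC3H14 and ZC3H18 most, with 2 or 3 distinct reads each in the ZC3H7A library.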
